A study of Homo sapiens with 16 samples.

Results

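The regions described here opened in oncogene-induced senescence of human fibroblasts and still carried an ATAC-seq peak after knockdown of the JUN family and after knockdown of FOXF1/2. Peaks on chromosomes 1 to 22 of the 10 paired-end lists were merged into 149504 regions wherever they overlapped by at least 1 bp. Of these, 19521 had a peak in all 4 lists of senescent cells (Sen) and in neither list of proliferating cells (Pro), which is 13.1% of all regions, and they are called Sen-opened. The 2074 kept regions, 10.6% of the Sen-opened ones and 1.39% of all, also had a peak in both JUN-family knockdown lists and in both siFOXF1/2 lists. They were chosen on these 10 lists, so their paired-end values are given as a description with no test, and only the 6 single-end lists, which the choice did not use, were tested.

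All libraries came from IMR-90 ER:Ras cells, a human lung fibroblast line that carries a Ras oncoprotein fused to an oestrogen receptor domain, so every group, Pro included, holds the fusion. The 2 JUN-family knockdown libraries are titled cJUN/JUND, while their treatment label names siRNA against cJUN, JUNB and JUND. The 2 siFOXF1/2, 2 sip300/CBP and 2 sip65 libraries received siRNA against FOXF1/2, against p300/CBP and against p65. The 4 paired-end and 2 single-end Sen libraries received control siRNA, and all Sen and knockdown cells had been given 4-hydroxytamoxifen (4-OHT), which switches the fusion on, at 100 nM over 6 days. The 2 Pro libraries had control siRNA and no 4-OHT on their treatment label, although their cell type label reads senescent fibroblast. Sequencing gave pairs of 35 bp for JUN-family knockdown, siFOXF1/2, 4 Sen and the Pro libraries, and single reads of 75 bp for sip300/CBP, sip65 and 2 Sen libraries. How far each target was depleted is not recorded in lists of peaks. The labelled cell type was not checked against marker genes, because no hg19 annotation was used here. The labels leave the origin of the replicates unstated, so the spread between them and every p-value may be technical.

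The factors silenced here act on chromatin in different ways. JUN proteins are subunits of AP-1, a factor that binds DNA as a dimer and is known to occupy many enhancers of senescent and stressed fibroblasts. FOXF1 and FOXF2 are forkhead factors of mesenchymal cells, including lung fibroblasts. The p300 and CBP proteins are histone acetyltransferases that act as coactivators at enhancers, and p65, the product of RELA, is the NF-kB subunit that drives much of the inflammatory secretion of senescent cells.

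Peak height is given as the summit pileup, the number of fragments stacked at the highest point of a peak, divided by the genome-wide background coverage of the same library. Background coverage was 1.74 to 3.08 fragments for paired-end libraries and 0.195 to 0.475 for single-end ones. Where the local coverage equals that background, the smallest height that could be listed was 4.58 to 6.31 with paired ends and 14.7 to 25.7 with single ends. The shallowest library was sip65 replicate 2, with 17707 listed peaks on these chromosomes. Peak strength is the lowest −log10 q that a region reached over the 4 paired-end Sen lists.

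Heights over background at the kept regions were lower after JUN-family knockdown than in Sen, although a peak was still listed. At the kept regions the median height was 13.3 and 15.9 in the JUN-family knockdown libraries, 27.9 and 31.1 in the siFOXF1/2 libraries, and 25.8, 29.2, 25.2 and 24.9 in Sen. Both JUN-family knockdown libraries lay below all 4 Sen libraries, while the siFOXF1/2 libraries overlapped the Sen range. As group values, the medians averaged 14.6 ± 1.84 after JUN-family knockdown (SD, n = 2), 29.5 ± 2.27 after siFOXF1/2 (SD, n = 2) and 26.3 ± 1.98 in Sen (SD, n = 4). Kept here therefore means the presence of a listed peak and says nothing of its height. Scaled on the regions with a peak in all 10 lists in place of background, the median log2 difference from Sen was 0.07 after JUN-family knockdown and −0.07 after siFOXF1/2, so the lower JUN-family heights hold on the background scale only. The kept regions were also lower than the 37197 regions with a peak in all 10 lists, whose medians averaged 24.5 ± 3.38 after JUN-family knockdown (SD, n = 2), 52.3 ± 0.918 after siFOXF1/2 (SD, n = 2) and 44.4 ± 2.85 in Sen (SD, n = 4).

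**Figure D1:**
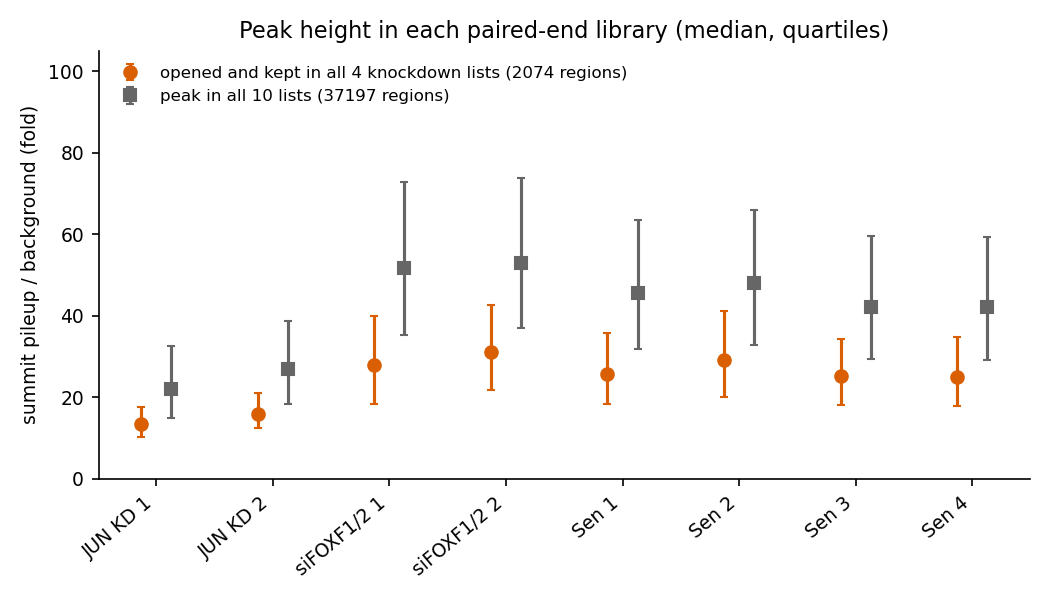
Peak height over background (y axis, fold) in each of 8 paired-end libraries (x axis), for the 2074 kept regions (circles) and the 37197 regions with a peak in all 10 lists (squares). Points are medians over regions and bars the quartiles; at the kept regions both JUN-family knockdown medians, 13.3 and 15.9, lie under every Sen median.

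The peaks were narrower as well. The median width of a kept peak was 238 and 226 bp in the JUN-family knockdown lists, 445 and 435 bp in the siFOXF1/2 lists, and 453, 442, 391 and 340 bp in the Sen lists. The JUN-family knockdown widths averaged 232 ± 8.49 bp (SD, n = 2), against 406 ± 52.2 bp in Sen (SD, n = 4), and neither JUN-family knockdown library reached the narrowest Sen library. This is not particular to the kept regions. At the regions in all 10 lists the widths averaged 431 ± 19.8 bp after JUN-family knockdown (SD, n = 2) and 653 ± 67.0 bp in Sen (SD, n = 4). The summit itself mostly stayed in place: in the JUN-family knockdown lists 90.5% and 91.0% of the kept regions had their summit within 100 bp of the median Sen summit, and in the siFOXF1/2 lists 91.1% and 92.2%. The Sen lists, which set that median, had 95.3% to 97.0%. Regions in all 10 lists had similar shares, 89.1% and 89.3% after JUN-family knockdown and 89.8% and 90.0% after siFOXF1/2.

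After JUN-family knockdown most kept regions were lower on the background scale. Their median log2 height difference, JUN-family knockdown minus Sen, was −0.80, with quartiles of −1.22 and −0.38, and 777 regions (37.5%) were more than 1 log2 unit lower. Both knockdown libraries lay below all 4 Sen libraries at 1523 kept regions (73.4%), beside 83.8% of all regions with a peak in the same 6 lists, and above all 4 at 90 (4.34%), beside 2.07%. These shares are not particular to the kept regions, because the regions with a peak in all 10 lists had a median of −0.79. When each library was scaled on the median height of those regions instead, the median of the kept regions turned to 0.07, with 554 (26.7%) below, beside 20.9%, and 653 (31.5%) above, beside 30.4%. A change of all regions together and a difference in the signal-to-background ratio of the libraries cannot be told apart in these lists.

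The difference grew with strength. Among the 519 weakest, with −log10 q from 4.51 to 23.7, the median height was 12.5 after JUN-family knockdown and 15.2 in Sen, a median log2 difference of −0.33. Among the 519 strongest, from 55.9 to 154, it was 16.2 after JUN-family knockdown and 40.8 in Sen, a median log2 difference of −1.30. Part of this trend follows from the choice of regions: strength is itself a Sen value, and a weak region with a large loss would have had no listed JUN-family knockdown peak. Regions in all 10 lists had medians of −0.31 and −0.84 over the same strength ranges, though the upper range reaches much stronger peaks there. Over 10 bins of strength, the kept regions averaged −0.81 and the regions in all 10 lists −0.64, with the kept regions lower in 8 of 10 bins. The gap was −0.12 in the lowest bin and −0.62 in the highest. The highest bin has no upper edge, so strength is not equal there. The average difference of −0.17 does not depend on the scaling of the libraries, and it used lists that chose the regions, so it has no test.

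Knockdown of FOXF1/2 left the median height close to Sen and spread the regions in both directions. The median log2 difference, siFOXF1/2 minus Sen, was 0.16 with quartiles of −0.25 and 0.57, and 0.26 at the regions in all 10 lists. Scaled on the regions in all 10 lists, the kept regions had a median of −0.07. Both siFOXF1/2 libraries lay below all 4 Sen libraries at 381 kept regions (18.4%), beside 8.83% of all regions with a peak in the same 6 lists, and above all 4 at 742 (35.8%), beside 46.1%. With the other scaling 635 (30.6%) lay below, beside 19.2%, and 495 (23.9%) above, beside 24.4%. The strongest 519 kept regions had a median height of 40.6 after siFOXF1/2 and 40.8 in Sen, a median log2 difference of −0.08, where the regions in all 10 lists had 0.23. Over 10 bins of strength the kept regions averaged 0.17 and the regions in all 10 lists 0.35, lower at the kept regions in 10 of 10 bins. The gap was −0.03 in the lowest bin and −0.41 in the highest, where regions in all 10 lists again reach stronger peaks.

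**Figure D2:**
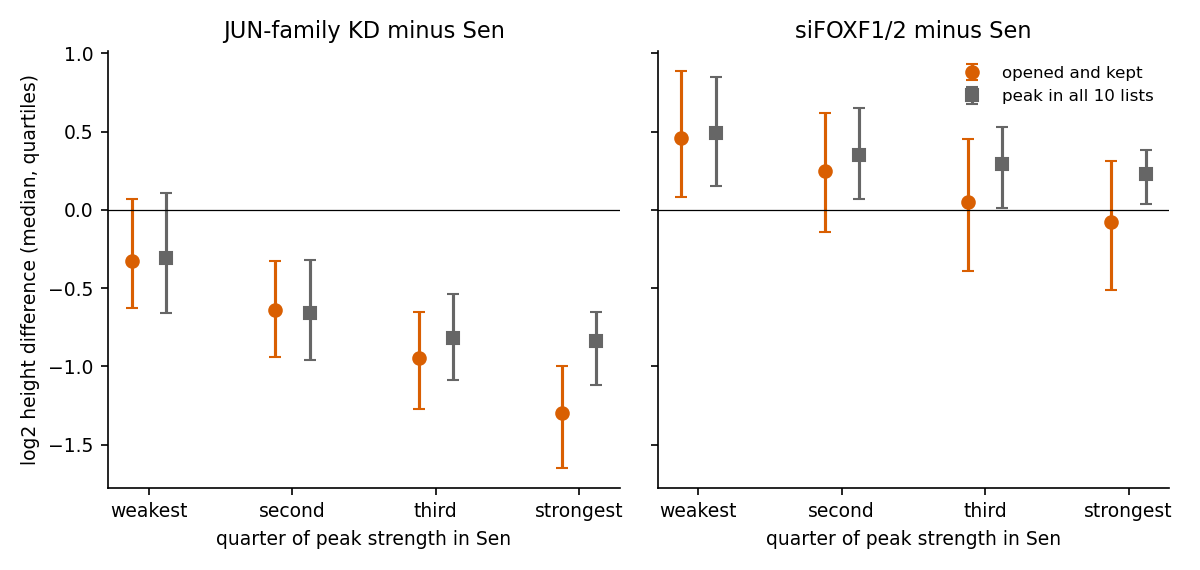
Difference of log2 height over background from Sen (y axis) after JUN-family knockdown (left) and siFOXF1/2 (right), over 4 ranges of peak strength in Sen (x axis, weakest to strongest). Points are medians and bars quartiles over regions, circles for the kept regions and squares for regions in all 10 lists; in the strongest range the medians are −1.30 and −0.84 after JUN-family knockdown and −0.08 and 0.23 after siFOXF1/2.

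With Sen replicates 1 and 2 set against siFOXF1/2 and Sen replicates 3 and 4 against JUN-family knockdown, the 2 differences share no control library. This split follows the prefix style of the peak names, which Pro shares with siFOXF1/2. The labels name no batch or matched control, so the split is a choice made here. Relative to those Sen replicates alone the median log2 difference was −0.74 for JUN-family knockdown and 0.13 for siFOXF1/2. Across the 2074 kept regions the differences had a Pearson r of 0.41 and a Spearman rho of 0.40, as a description over regions that share libraries, and across the regions in all 10 lists 0.37 and 0.32. Set against all 4 Sen libraries, which the knockdowns then share, both knockdowns lay below Sen at 340 kept regions (16.4%), beside 8.44% of all regions with a peak in the same 8 lists, and with the other scaling at 286 (13.8%), beside 7.79%. JUN-family knockdown lay below and siFOXF1/2 above all 4 Sen libraries at 480 kept regions (23.1%), beside 40.5%. With the other scaling this opposite pattern was found at 69 (3.33%), beside 3.69%.

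The 10 strongest kept regions show both behaviours. The strongest, chr6:155447903-155448631 (hg19), had heights of 30.5 and 32.8 after JUN-family knockdown, 60.8 and 75.8 after siFOXF1/2, and 76.5, 92.8, 71.0 and 70.1 in Sen. Its JUN-family knockdown libraries lay below every Sen library, and its siFOXF1/2 libraries reached into the Sen range. At chr1:150868033-150868558 the heights were 9.41 and 15.9 after JUN-family knockdown, 39.8 and 37.4 after siFOXF1/2, and 58.6, 63.2, 48.7 and 56.5 in Sen, so that both knockdowns lay below Sen.

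The third, chr5:452980-453679, had the largest height loss after siFOXF1/2 among kept regions at or above the median strength. It stood at 23.7 and 38.3 after JUN-family knockdown, 10.3 and 20.8 after siFOXF1/2, and 78.9, 72.8, 69.3 and 76.8 in Sen. The log2 difference from Sen was −1.30 for JUN-family knockdown and −2.34 for siFOXF1/2, the reverse of the usual order among strong kept regions. By contrast chr7:26949726-26950370 had 16.6 and 19.9 after JUN-family knockdown, 79.6 and 82.0 after siFOXF1/2, and 59.2, 62.8, 62.1 and 64.3 in Sen, so that the knockdowns lay on opposite sides of all Sen libraries, under either scaling.

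Among the other 6 of these 10, chr6:141869959-141870637 had 13.0 and 14.4 after JUN-family knockdown, 58.2 and 47.8 after siFOXF1/2, and 66.1, 89.2, 60.8 and 69.4 in Sen. At chr5:178820103-178820743 JUN-family knockdown gave 9.41 and 12.4 and siFOXF1/2 70.4 and 60.2, with 64.1, 60.0, 47.8 and 61.2 in Sen. Here siFOXF1/2 overlapped Sen while JUN-family knockdown fell far short of it. At chr6:106035035-106035739 both knockdowns were low, with 20.1 and 31.3 after JUN-family knockdown, 26.4 and 35.8 after siFOXF1/2, and 69.9, 79.6, 75.2 and 80.3 in Sen. The remaining 3, chr3:150762486-150763001, chr3:59272251-59273288 and chr14:32406913-32407631, had log2 differences of −1.20, −1.61 and −1.56 for JUN-family knockdown and −0.23, −0.99 and −0.19 for siFOXF1/2. Both JUN-family knockdown libraries lay below all 4 Sen libraries in each of the 10 on the background scale, and with the other scaling the log2 differences ran from −1.55 to −0.34.

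**Figure D3:**
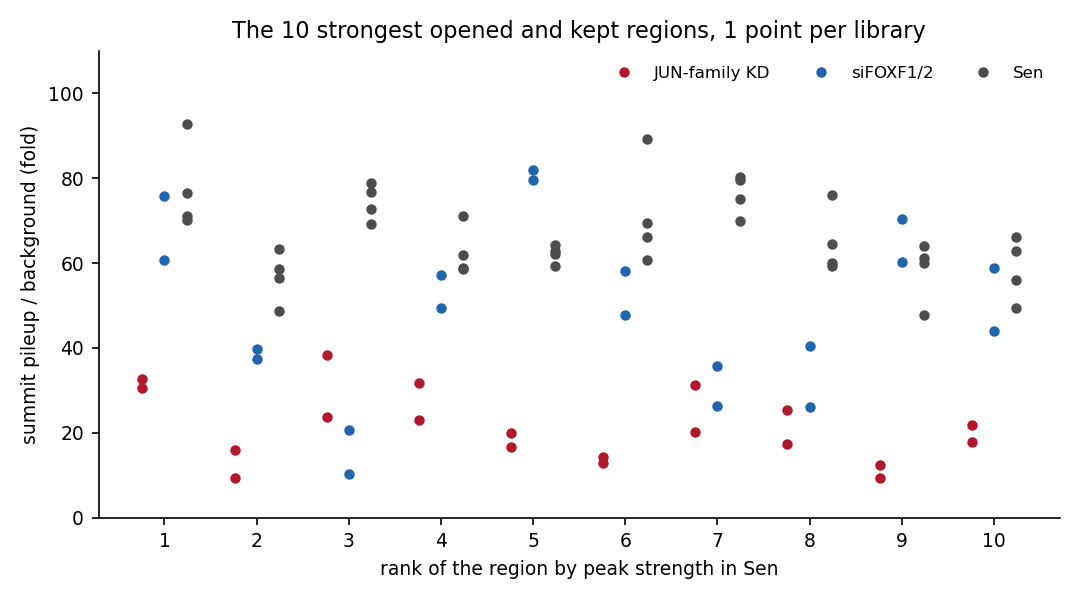
Height over background (y axis, fold) at the 10 strongest kept regions (x axis, ranked by strength in Sen), with 1 point per library for JUN-family knockdown, siFOXF1/2 and Sen, left to right in each rank. JUN-family knockdown points lie below all Sen points at every rank, whereas siFOXF1/2 points range from 10.3 and 20.8 at rank 3 to 79.6 and 82.0 at rank 5.

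Among the stronger kept regions, those at or above the median strength, the largest difference after JUN-family knockdown was at chr16:82226158-82226996. Heights there were 7.14 and 10.4 after JUN-family knockdown, 63.9 and 57.6 after siFOXF1/2, and 78.2, 84.0, 55.9 and 62.7 in Sen, a log2 difference of −3.0 for JUN-family knockdown and −0.19 for siFOXF1/2. The siFOXF1/2 libraries stayed within the Sen range. The next were chr12:116989655-116990300 and chr3:133259796-133260508, with log2 differences of −2.65 and −2.51 for JUN-family knockdown and −0.55 and −0.32 for siFOXF1/2.

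Gains after JUN-family knockdown were smaller in the same stronger regions, where the largest with both libraries above all 4 Sen libraries was at chr4:8530520-8530787, with 26.9 and 27.3 after JUN-family knockdown, 24.5 and 26.5 after siFOXF1/2, and 17.6, 18.4, 20.6 and 21.0 in Sen. Its log2 difference was 0.49, and all knockdown libraries of either kind stood above all Sen libraries. At chr3:177292085-177292504 and chr2:190294936-190295490 the log2 difference was 0.30 each. Scaled on the regions in all 10 lists, these 3 gains become 1.35, 1.17 and 1.16. Weaker kept regions, not named here, had larger gains, and 15 kept regions (0.723%) were more than 1 log2 unit higher.

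Among the same stronger regions, chr5:57542094-57542787 after siFOXF1/2 had 8.80 and 9.34, against 12.0 and 14.4 after JUN-family knockdown and 43.7, 57.6, 30.1 and 37.8 in Sen. Its log2 difference was −2.18 for siFOXF1/2 and −1.64 for JUN-family knockdown. At chr17:13553428-13553956 siFOXF1/2 gave 6.89 and 19.2, with a log2 difference of −2.17, and JUN-family knockdown −2.33. These 3 regions with the largest loss after siFOXF1/2 also stood below Sen after JUN-family knockdown. On the background scale so did 73.4% of the kept regions and 83.8% of all regions with a peak in the same 6 lists.

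Among the stronger kept regions, gains after siFOXF1/2 exceeded those after JUN-family knockdown on the background scale. The largest was at chr2:53672427-53673128, where siFOXF1/2 gave 73.5 and 82.5, JUN-family knockdown 13.3 and 13.9, and Sen 21.4, 36.0, 24.5 and 20.7. Its log2 difference was 1.64 for siFOXF1/2 and −0.88 for JUN-family knockdown. The next were chr17:56310051-56310569 and chr1:68348508-68349307, at 1.62 and 1.36 for siFOXF1/2 and −0.81 and −0.93 for JUN-family knockdown. In all 3, siFOXF1/2 lay above and JUN-family knockdown below every Sen library on the background scale. Scaled on the regions in all 10 lists, siFOXF1/2 stayed above at 1.4, 1.39 and 1.12, while JUN-family knockdown overlapped Sen at −0.01, 0.06 and −0.06. Weaker kept regions included larger gains after siFOXF1/2, and 168 kept regions (8.1%) were more than 1 log2 unit higher.

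An unlisted Pro peak does not mean closed chromatin, so the gap to the Pro lists was bounded. A Pro library with the local background seen in Sen could have hidden a median height of 9.18 at the kept regions. The lowest Sen height was at least 2 times this limit at 1356 kept regions (65.4%), beside 34.4% of all Sen-opened regions, with a median bound of 2.31 and quartiles of 1.77 and 2.91. It was under 1 at 24 regions (1.16%), where no difference from Pro could be shown. Scaled on the regions in all 10 lists, 1446 (69.7%) reached the bound. The share with the bound was 18.8% among the 3873 Sen-opened regions lost in both knockdowns, 32.2% among the 8380 lost after JUN-family knockdown only and 34.9% among the 415 lost after siFOXF1/2 only. The bound rises with Sen height by construction, and these shares were not compared at equal strength. Median Sen heights averaged 26.3 at the kept regions, and 15.4, 18.4 and 20.5 in these 3 classes. Among the 10 strongest kept regions the bound ran from 4.24 at chr6:141869959-141870637 to 5.73 at chr7:26949726-26950370.

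The JUN-family knockdown lists decided most of the membership. Of all Sen-opened regions, 14.7% had a peak in both JUN-family knockdown lists and 61.6% in both siFOXF1/2 lists. The weakest of the 8 peaks that a kept region needs was a JUN-family knockdown peak at 1617 regions (78.0%), a siFOXF1/2 peak at 241 (11.6%) and a Sen peak at 216 (10.4%). Only 5 kept regions had a −log10 q under 5 in any of the 8 lists. Just outside the rule, 797 and 783 regions missed it through JUN-family knockdown replicate 1 or 2 alone, 276 and 110 through siFOXF1/2 replicate 1 or 2, 72, 146, 20 and 35 through a single Sen list, and 859 and 858 through a single Pro list. More regions missed the rule through 1 list than met it. The lists differ in length, which bears on every class. Peaks on these chromosomes numbered 61426 and 58955 in JUN-family knockdown and 63860 and 64904 in Pro. Sen had 96512 to 100656, and siFOXF1/2 had 105828 and 100125. Cut to equal length, the lists gave 6758 Sen-opened regions, of which 1011 (15.0%) were kept. When peaks had to cover at least 50% of a region, 1175 of 17180 (6.84%) were kept.

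The weakest kept region, chr4:184094825-184095141, had a strength of 4.51 and heights of 7.14 and 8.95 after JUN-family knockdown, 13.8 and 10.9 after siFOXF1/2, and 5.51, 8.00, 5.56 and 7.79 in Sen. The next 2, chr10:4284748-4285149 and a region on chromosome 8, had strengths of 5.22 and 5.38. Outside it, chr19:2395869-2396208 had a strength of 170 and missed the rule through Pro replicate 2, where its height was 17.7, against 66.5, 85.6, 73.9 and 68.2 in Sen. Likewise chr1:171762891-171763676 (strength 167) had 18.4 in Pro replicate 1 and chr2:240866397-240867212 (strength 152) 31.9 in Pro replicate 2. On the knockdown side, chr10:71747856-71748403 (strength 122) lacked a peak in JUN-family knockdown replicate 2 and had 6.49 in replicate 1, against 48.9, 62.0, 51.4 and 48.7 in Sen. The others were chr10:114126746-114127236, unlisted in siFOXF1/2 replicate 1 with 28.0 in replicate 2, and chr4:8338108-8338733, unlisted in JUN-family knockdown replicate 1 with 18.4 in replicate 2.

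Strong Sen-opened regions were kept far more often than weak ones. Of the 1953 weakest Sen-opened regions, with −log10 q from 4.23 to 10.1, 67 (3.43%) were kept, 31.1% were lost in both knockdowns and 40.9% after JUN-family knockdown only. Of the 1952 strongest, from 49.6 to 154, 652 (33.4%) were kept, 4.15% were lost in both and 34.1% after JUN-family knockdown only. A weak region needs only a small fall in height to drop out of a list, so part of this gradient follows from the rule. The share lost after siFOXF1/2 only stayed between 1.48% and 2.66% over all 10 groups of strength. The median strength of kept regions was 37.4 (quartiles 23.7 and 55.9), against 17.3 for regions lost in both, quartiles of 14.8 and 32.8 for those lost after JUN-family knockdown only, a median of 22.9 for those lost after siFOXF1/2 only and one of 69.1 for regions in all 10 lists.

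**Figure D4:**
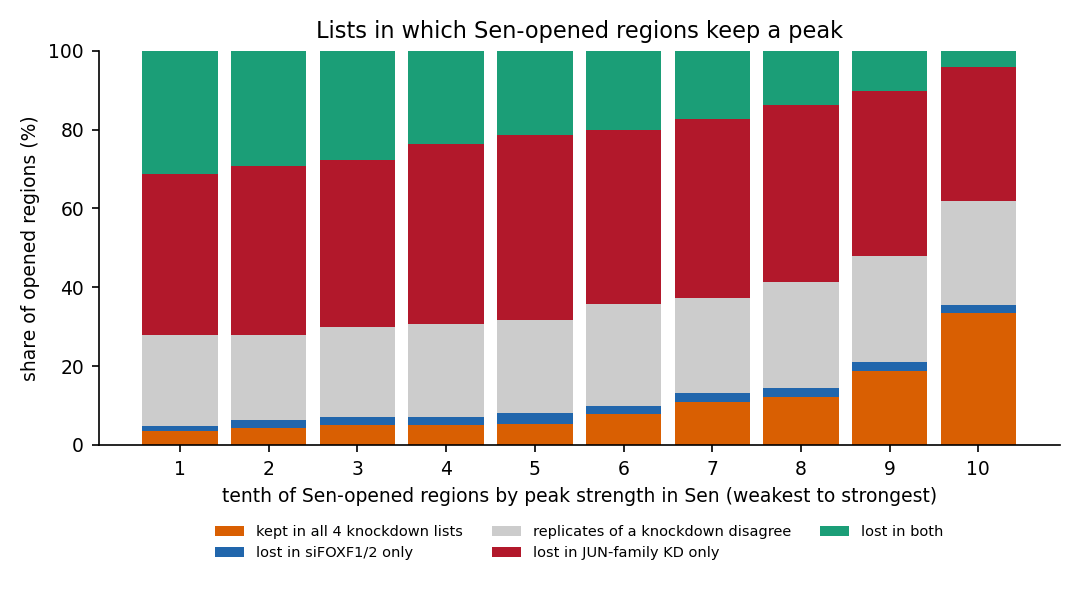
Share of the 19521 Sen-opened regions (y axis, percent) by the knockdown lists in which they keep a peak, over 10 groups of equal size by strength in Sen (x axis, weakest to strongest). The kept regions, at the bottom of each bar, make up 3.43% of the weakest group and 33.4% of the strongest. Part of this gradient follows from the rule, because weak peaks drop out of a list more easily.

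The width, position and spacing of the kept regions are given as a description. Their median width was 587 bp (quartiles 464 and 755), against 423 bp for regions lost in both knockdowns, 563 bp for those lost after JUN-family knockdown only, 442 bp for those lost after siFOXF1/2 only and 838 bp for regions in all 10 lists. These widths were not compared at equal strength, and a region merged from more and stronger peaks is wider by construction. A single peak in each of the 4 Sen lists was found at 95.8%. They were found on all 22 chromosomes, from 8.86 kept per 100 Sen-opened regions on chromosome 20 to 13.6 on chromosome 14. The nearest other kept region lay at a median of 281 kb, the nearest other Sen-opened region at 30.3 kb and the nearest region of all 10 lists at 14.7 kb. Another kept region stood within 10 kb of 4.53% of the kept regions. A kept region stood within 10 kb of 3.15% of regions lost in both and 2.41% of those lost after JUN-family knockdown only. That share was 4.1% for regions lost after siFOXF1/2 only and 2.65% for regions in all 10 lists. A region of all 10 lists stood within 10 kb of 38.7% of the kept regions, of 35.5% of those lost in both, of 31.8% of those lost after JUN-family knockdown only and of 41.9% of those lost after siFOXF1/2 only. Distances to classes of different size are not comparable with each other.

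Another kept region lay within 25 kb of 188 kept regions (9.06%), in 90 clusters, of which 83 held 2, 6 held 3 and 1 held 4. The cluster of 4 spanned 47406 bp at chr4:143437843-143485248, and its 4 kept regions were the only Sen-opened regions among the 7 in that span. Members of this cluster differed in their response. At chr4:143456129-143456716 heights were 13.6 and 14.9 after JUN-family knockdown, 33.3 and 45.7 after siFOXF1/2, and 46.2, 53.2, 39.6 and 37.8 in Sen. At chr4:143471187-143471633 they were 10.1 and 13.9 after JUN-family knockdown, 47.1 and 54.0 after siFOXF1/2, and 38.2, 37.6, 28.5 and 28.4 in Sen, so that siFOXF1/2 lay above Sen at this region and overlapped it at its neighbour. The outer members, chr4:143437843-143438318 and chr4:143484903-143485248, had log2 differences of −0.90 and −0.22 for JUN-family knockdown and −0.75 and −0.22 for siFOXF1/2.

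The cluster at chr12:27329768-27339663 was more uniform in the paired-end libraries. Its 3 members had log2 differences of −1.47, −1.25 and −1.11 for JUN-family knockdown and 0.47, 0.52 and 0.61 for siFOXF1/2. All siFOXF1/2 libraries lay above and all JUN-family knockdown libraries below all Sen libraries at each of the 3 on the background scale, and with the other scaling at chr12:27330531-27331077 alone. In the single-end lists the members parted: chr12:27329768-27330233 had heights of 34.1 and 37.5 in sip300/CBP and no sip65 peak, while chr12:27330531-27331077 had no sip300/CBP peak and 38.3 and 46.2 in sip65. In the cluster at chr10:116665092-116686136, JUN-family knockdown gave −0.78, −0.81 and −0.95, while siFOXF1/2 gave 0.56 at the first member and −0.39 and −0.67 at the others.

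The single-end libraries give a readout that played no part in choosing the regions. They are shallower, so a region without a single-end peak need not be closed. A peak was listed at 1161 (56.0%) and 871 (42.0%) of the kept regions in sip300/CBP, at 970 (46.8%) and 357 (17.2%) in sip65, and at 1198 (57.8%) and 1436 (69.2%) in Sen. The 95% Wilson interval, which covers counting error over regions only, was 53.8 to 58.1% for the first sip300/CBP and 55.6 to 59.9% for the first Sen library, and these intervals overlap. By value every knockdown library stood below both Sen libraries, sip65 replicate 2 far below the rest. The mean share was 49.0 ± 9.89% in sip300/CBP against 63.5 ± 8.11% in Sen (SD, n = 2 each), a difference of −14.5 points, and 32.0 ± 20.9% in sip65 (SD, n = 2), a difference of −31.5 points. A two-sided exact permutation test gave p = 0.333 for each, the smallest that 2 libraries against 2 can give, so neither difference can pass a threshold of 0.05. Falls were not particular to the kept regions. At regions lost in both, lost after JUN-family knockdown only and lost after siFOXF1/2 only, sip300/CBP differed by −15.5, −13.8 and −22.2 points. For sip65 these were −11.2, −34.4 and −12.0 points. Regions in all 10 lists had −7.03 points in sip300/CBP and −24.2 in sip65. Without sip65 replicate 2 the sip65 difference was −16.7 points, and leaving out single libraries gave −21.5 to −7.52 points for sip300/CBP. Single-end peaks at kept regions are narrow, with library medians of 130 to 168 bp, and when they had to cover at least 50% of a region the differences were −3.01 points for sip300/CBP and −4.7 points for sip65.

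Classes were then compared within each single-end library at equal strength. Averaged over the 6 single-end libraries, the share with a peak was 21.6 ± 14.9 points (SD, n = 6) higher at kept regions than at regions lost in both knockdowns, higher in 6 of 6 libraries. It was 4.98 ± 4.70 points higher than at regions lost after JUN-family knockdown only (5 of 6), 12.0 ± 16.9 points higher than at those lost after siFOXF1/2 only (4 of 6), and differed by −0.12 ± 4.83 points from regions in all 10 lists (higher in 3 of 6). Exact two-sided sign-flip permutation tests over the libraries gave p = 0.0312, 0.0938, 0.188 and 0.969 in that order, or 0.125, 0.188, 0.25 and 0.969 after Benjamini-Hochberg adjustment over the 4 classes. With 0.0312 the smallest p that 6 libraries can give, no class difference passed 0.05 after adjustment. All 6 libraries come from 1 cell line. With peaks covering at least 50% of a region, the difference from regions lost in both was −0.0361 points, that from regions lost after siFOXF1/2 only −0.419 points and that from regions in all 10 lists 1.89 points. Under that setting few kept regions had a peak, on average 6.94% in Sen, 3.93% in sip300/CBP and 2.24% in sip65, which leaves little room for a difference.

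By library these differences varied. In the sip300/CBP libraries the kept regions exceeded those lost in both knockdowns by 44.3 and 33.5 points and those lost after siFOXF1/2 only by 33.8 and 26.5 points. In the Sen libraries these differences were 20.4 and 16.8 points, and 17.0 and 7.45 points. Set against regions in all 10 lists, kept regions differed by −7.35 and −2.51 points in sip300/CBP and by 6.12 and 3.93 points in Sen. In sip65 the order against regions lost after siFOXF1/2 only was the reverse, with differences of −3.48 and −9.43 points. Kept regions exceeded those lost after JUN-family knockdown only by 8.02 and 4.85 points in sip300/CBP and by 12.1 and 4.96 points in sip65, with −0.577 and 0.535 points in Sen. Each of these shifts from Sen had an exact permutation p of 0.333, the smallest possible, so that no dependence on the knockdown was shown.

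Kept regions that both single-end Sen lists held were mostly held after p300/CBP knockdown and partly after p65 knockdown. There were 1087 of them (52.4%). In sip300/CBP, 238 (21.9%, 95% Wilson interval 19.5 to 24.5) had no peak in either list, beside 15.9% of all regions held by both Sen lists, and 628 (57.8%, 54.8 to 60.7) had one in both, beside 67.1%. At equal strength 71.3% of regions lost in both transcription factor knockdowns had no sip300/CBP peak, 54.8% of those lost after siFOXF1/2 only, 27.3% of those lost after JUN-family knockdown only and 13.8% of those in all 10 lists. In sip65, 331 kept regions (30.5%, 27.8 to 33.3) had no peak in either list, beside 26.8%, and 269 (24.7%, 22.3 to 27.4) had one in both, beside 35.3%. At equal strength these absences were 45.3%, 28.9%, 44.5% and 25.6% in the same order of classes.

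Depth bears on the p65 value in particular. Limited to kept regions whose lowest Sen height exceeded what the knockdown libraries could have hidden, 196 of 951 (20.6%) had no sip300/CBP peak and 96 of 577 (16.6%) no sip65 peak, against 7.15% and 5.16% of regions in all 10 lists under the same limit. These shares were not compared at equal strength, and regions in all 10 lists were stronger, with a median of 69.1 against 37.4. At equal strength without this limit the shares were 21.9% against 13.8% for sip300/CBP, and 30.5% against 25.6% for sip65. Without sip65 replicate 1 the share with no sip65 peak was 72.9%, read from the shallow replicate alone. Without sip300/CBP replicate 1 the share with no sip300/CBP peak was 38.9%. With peaks covering at least 50% of a region it was 43.4% (33 of only 76 regions), against 51.3% (39 of 76) for sip65. A total of 75 kept regions (6.90% of the 1087) had no peak in any of the 4 knockdown lists, and 167 (15.4%) had one in all 4.

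Where the single-end peaks were held, their heights overlapped those in Sen. Only regions with a peak in both knockdown and both Sen lists enter, so regions whose height fell too low to be listed are left out. The comparison therefore cannot show that heights were unchanged. At the 628 kept regions listed in both sip300/CBP and both Sen libraries, the median height was 60.6 and 47.7 in sip300/CBP, between the higher and the lower Sen library, and the median log2 difference was 0.12. At the 269 held in sip65 and Sen it was 47.8 and 56.4 in sip65, against 65.0 and 44.2 in Sen, a median log2 difference of −0.04. The groups overlapped, and the exact permutation p was 1 in both cases, where 0.333 is the smallest possible. Regions in all 10 lists had median log2 differences of 0.13 and −0.02.

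Kept regions were also split by their height difference after FOXF1/2 knockdown, and their shares with a single-end peak were compared. The 691 kept regions with the lowest siFOXF1/2 minus Sen difference (median −0.46) and the 692 with the highest (median 0.74) were compared in each single-end library, over 3 bins of strength. The share with a peak at the high regions minus that at the low ones was 16.1 and 18.7 points in sip300/CBP, −11.9 and −8.34 points in sip65, and 5.89 and 0.71 points in Sen. Before this adjustment the shares were 57.5% and 45.1% at the high regions in sip300/CBP, against 49.3% and 36.0% at the low ones, and 34.2% and 9.97% at the high regions in sip65, against 58.8% and 26.2% at the low ones. The shift from Sen was 14.1 points for sip300/CBP and −13.4 points for sip65, with both knockdown libraries beyond both Sen libraries each time. The exact permutation p was 0.333 for each, the smallest possible, and the 2 layouts share no library. This grouping was chosen after seeing the data, and it used paired-end lists that chose the regions. It was not made in the other classes, so no link particular to the kept regions was shown.

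The same split by the JUN-family knockdown difference set the 692 regions with the smallest loss (median −0.20) against the 691 with the largest (median −1.40). These groups differ widely in strength, with medians of 23.7 and 57.7, and the unadjusted shares with a sip300/CBP peak were lower at the regions with the smallest loss, 50.7% and 36.4% against 60.6% and 48.5%. At equal strength the sign turned, with differences of 10.4 and 8.54 points in sip300/CBP and −4.63 and −1.41 points in Sen, a shift of 12.5 points that rests on the adjustment over 3 bins. In sip65 the values were −3.16 and 1.75 points, overlapping Sen. The exact permutation p was 0.333 for sip300/CBP, the smallest possible, and 0.667 for sip65.

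**Figure D5:**
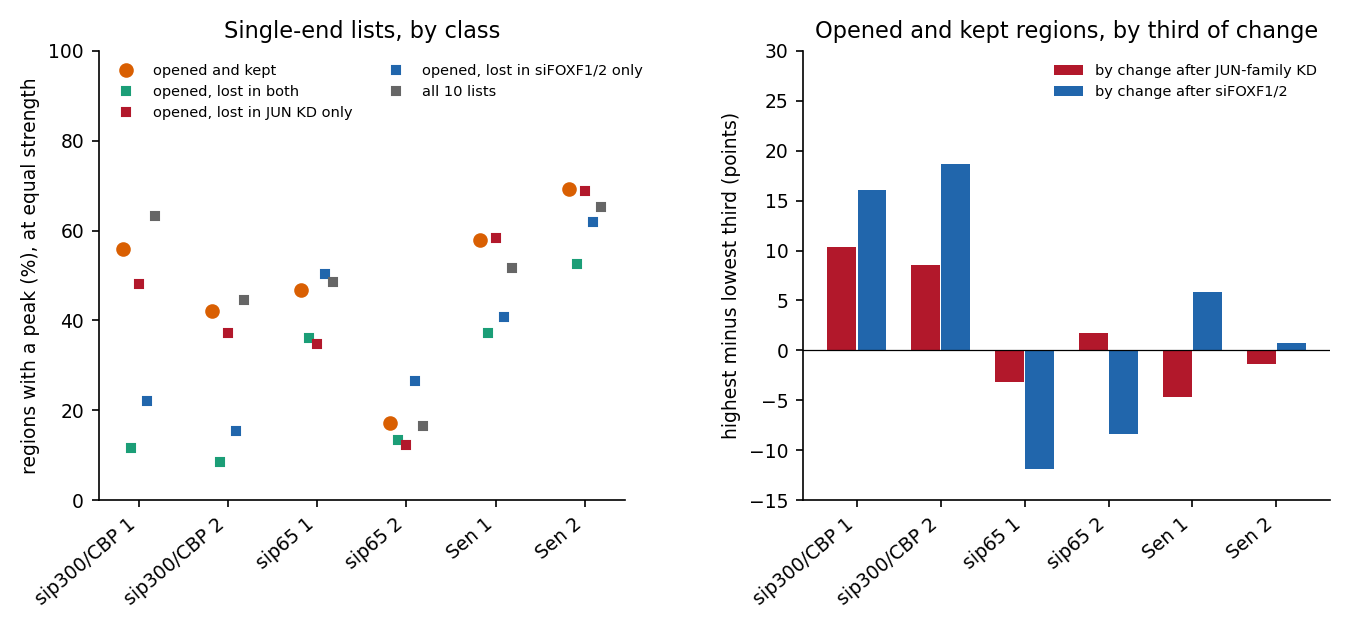
Left, share of regions with a peak (y axis, percent) in each of the 6 single-end libraries (x axis) for kept regions (circles) and the 4 other classes (squares), the squares weighted to the strength of the kept regions. Right, difference in that share (y axis, percentage points) between the kept regions with the highest and the lowest height difference after JUN-family knockdown (red) or siFOXF1/2 (blue), at equal strength; the blue bars reach 16.1 and 18.7 points in sip300/CBP and −11.9 and −8.34 points in sip65.

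Single regions followed these patterns only in part. Among kept regions at or above the median strength, the largest loss after siFOXF1/2 was at chr5:452980-453679. That region had no peak in either sip300/CBP list, heights of 86.1 and 82.1 in sip65, and 56.4 and 48.4 in single-end Sen. It was the strongest kept region without a sip300/CBP peak. The next, chr7:41286895-41287515, had 60.6 and 71.8 in sip65 and 73.7 and 37.9 in single-end Sen, and after siFOXF1/2 it stood at 75.4 and 70.1, above 63.4, 63.6, 56.9 and 56.1 in paired-end Sen on the background scale only. At chr15:80164836-80165679, also without a sip300/CBP peak, siFOXF1/2 gave 15.7 and 24.4, against 49.6, 59.6, 53.6 and 62.3 in paired-end Sen. The loss after siFOXF1/2 was thus found at 2 of these 3 regions.

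Of the kept regions without a sip65 peak the strongest was chr2:171018619-171019200, with 68.1 and 51.1 in sip300/CBP and 52.0 and 35.8 in single-end Sen. The next 2, chr11:77416396-77417545 and chr13:65125811-65126541, had 71.9 and 51.1, and 49.2 and 37.5, in sip300/CBP. The log2 differences for siFOXF1/2 at these 3 regions were −0.54, 0.24 and −0.16, or −0.78, 0.0 and −0.4 with the other scaling. A gain after siFOXF1/2 was thus found at chr11:77416396-77417545 alone, on the background scale. The strengths of the 3 regions, 96.0, 92.5 and 90.2, were lower than the 149, 132 and 118 of the 3 without a sip300/CBP peak. Of the 10 strongest kept regions, 9 had a peak in all 6 single-end lists, the exception being chr5:452980-453679. Over all kept regions 167 (8.05%) had a peak in all 6 single-end lists and 326 (15.7%) in none, against 30.5% of the regions in all 10 lists with a peak in all 6.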

How the data were processed

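Open chromatin was tagged by Tn5 transposase, per the labels' protocols. The submitters' processing notes name MACS2 2.1.1, Bowtie2 2.3.4.1, deepTools 3.1.1, SAMtools 1.9 and build hg19, without role or order. How reads were shifted, how duplicates were treated and which caller options were set is not stated there. The deposited narrowPeak lists, 1 per library, hold a summit position, a score, a ratio (fold enrichment over the local background) and the −log10 p-value and q-value of each peak, all the authors' values. The score was not used.

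Peaks on chromosomes 1 to 22 were merged with a minimum overlap of 1 bp. The whole summit pileup and local background were recovered from the fold and the Poisson p-value for 100% of peaks in every list, within 0.002 in −log10 p, widened in proportion above 10. The 1st percentile of the local background was the genome-wide background. The limit on hidden height was the smallest pileup that reaches the lowest listed p at the mean local background of the Sen libraries. At equal strength, class shares were weighted to the kept regions over 10 bins. The highest bin has no upper edge, so regions in all 10 lists reach stronger peaks there. The recovery was tested on simulated data. Tests were exact permutation or sign-flip tests over libraries. Peak names have one prefix style in siFOXF1/2, Sen replicates 1 and 2 and Pro, and another in JUN-family knockdown and Sen replicates 3 and 4. Python 3.11.15, pandas 2.3.3 and scipy 1.17.1 were used.

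The regions, lists and tests were chosen with earlier results of these data known. Regions were named by rule: the 10 strongest kept regions; among those at or above median strength, the 3 largest losses and 3 largest gains per knockdown with both libraries beyond all 4 Sen libraries; the 3 largest clusters, ties broken by summed strength; 3 regions just inside and 3 on each side just outside the rule; and the 3 strongest without a sip300/CBP or sip65 peak. The groupings by height difference, the alternatives for single-end heights and the split into knockdown and Sen libraries were added after seeing the data. Sequence and gene context were not analysed here.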

Additional observations from a re-analysis of the deposited data

Results flagged for a closer look

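In 1 of 55 groups of 4 Sen libraries examined, a library stood apart from the other 3. At chr2:190294936-190295490 the Sen heights were 16.2, 18.0, 18.0 and 18.3, a gap of 0.857 of the range, above the critical value of Dixon's test at 95%. Chance flags about 1 in 20 such groups.

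At 12 named regions both JUN-family knockdown libraries lay below and both siFOXF1/2 libraries above all 4 Sen libraries, on the background scale, a difference that was not tested and that shares the Sen controls. The log2 difference, siFOXF1/2 minus JUN-family knockdown, was 2.64 at chr7:41286895-41287515, 2.52 at chr2:53672427-53673128, 2.43 at chr17:56310051-56310569, 2.29 at chr1:68348508-68349307, 2.15 at chr7:26949726-26950370 and 2.09 at chr4:143471187-143471633. It was 1.94, 1.77 and 1.72 at the 3 members of the chromosome 12 cluster, 1.45 at chr2:240866397-240867212, 1.44 at chr11:77416396-77417545 and 1.34 at chr10:116665092-116665540. Scaled on the regions in all 10 lists, the pattern held at 3 of the 12 (chr7:26949726-26950370, chr4:143471187-143471633 and chr12:27330531-27331077) and the differences ran from 0.24 to 1.54. It was found at 23.1% of kept regions and 42.1% of regions in all 10 lists on the background scale, and at 3.33% and 3.71% with the other scaling.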

How the results depend on the processing

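The number of kept regions was 2074. It stayed within 1.5 times that count under a −log10 q of at least 5, windows on summits in place of merged peaks, each pair of Sen libraries and leaving out each library (2105 to 2933). It became 1011 of 6758 Sen-opened regions with lists of equal length. Where peaks had to cover at least 50% of the region, it became 1175 of 17180. The median log2 height difference from Sen reversed when libraries were scaled on regions in all 10 lists, to 0.07 for JUN-family knockdown and −0.07 for siFOXF1/2, and ran from −0.94 to −0.65 and from 0.10 to 0.25 when a library was left out.

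The single-end differences in share kept their sign under a −log10 q of at least 5, at 50% coverage, with each library left out and with the block. Leaving out a library gave −21.5 to −7.52 points for sip300/CBP and −46.3 to −16.7 for sip65. Replicate numbers did not pair the single-end libraries (correlation of deviations with Sen of 0.00 for sip300/CBP and 0.01 for sip65), and with a replicate block the differences remained −14.5 and −31.5 points, with an exact p of 0.5, the smallest possible.

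Where single-end peaks had to cover at least 50% of a region, the class differences reversed to −0.0361 points for regions lost in both, −0.419 for those lost after siFOXF1/2 only and 1.89 for those in all 10 lists. Few regions enter there, since on average 6.94% of kept regions had such a peak in Sen. The last also reversed with 20 bins (0.317), bins of the mean −log10 q (1.71) and in the Sen libraries alone (5.03), and ran from −1.37 to 1.33 when a library was left out. Regions lost after JUN-family knockdown only reversed in the Sen libraries alone (−0.021). Leaving out a library gave 17.1 to 25.2, 3.56 to 6.09 and 7.61 to 16.3 points for the other 3 classes.

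The share without a sip300/CBP peak was 43.4% at 50% coverage (33 of 76 regions) and 23.5% to 38.9% when a library was left out. For sip65 it was 51.3% at 50% coverage (39 of 76 regions), 16.6% above the detection limit and 32.8% to 72.9% when a library was left out. Single-end height differences ran from −0.18 to 0.38 for sip300/CBP and from −0.32 to 0.30 for sip65 when a library was left out. For the grouping by JUN-family knockdown, the sip65 shift ran from −0.141 points without sip65 replicate 2 to 4.77 points without sip65 replicate 1. Clusters numbered 46 with gaps of 10 kb and 157 with gaps of 50 kb. The cause of these changes was not tested. Sequence and gene context were planned and not run. The number of kept regions with the knockdowns on opposite sides of all 4 Sen libraries was 480, and 69 when scaled on regions in all 10 lists, an alternative chosen after seeing the data.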
